A study of Vigna radiata with 42 samples.

Results

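Leaves of mung bean that met salt for the second time were compared with leaves that met it for the first time, 12 h into the final salt treatment. The plants were Vigna radiata, cultivar Weilv 9, grown in diluted Murashige and Skoog solution under 16 h of light and 8 h of dark, and the first true leaves that had fully expanded were taken. The labels give 2 days of germination and 3 days in trays for both treatments. Pre-conditioned seedlings (T1) had 100 mM NaCl for 24 h, then 48 h without salt, then 100 mM NaCl again. Directly salted seedlings (T2) received 100 mM NaCl once. The comparison used the 3 T1 and the 3 T2 libraries at 12 h, 6 of the 42 libraries of the series, which also covers 0, 1, 3, 6, 24 and 48 h. Of the 28740 gene IDs in the deposited expression table, 17888 (62.2%) reached a value of 1 in 3 or more of these 6 libraries and were tested. The study calls its libraries biological replicates. The sources do not say whether 1 plant or a pool of plants stands behind each, so p-values measure the spread between these libraries. Nor do they say whether T2 seedlings were kept for the same number of days before the final salt, so the earlier salt and any difference in age cannot be told apart.

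Salt in the root medium first withdraws water from a plant and later loads its leaves with sodium and chloride. Leaves respond through the hormone abscisic acid, through transporters that move sodium into the vacuole or back out of the cell, and through solutes, protective proteins and enzymes that remove reactive oxygen, while photosynthesis and growth are slowed. A plant that has been through a mild stress and has recovered can respond to the next one with another timing or strength, which is called acclimation or stress memory. The question of the comparison is whether the earlier salt changed the leaf transcriptome in this way. The table gives gene IDs without names, and 0 of the 28740 IDs matched the gene list at hand, so genes are given here by ID, with no function and no sequence, and the leaf identity could not be checked on marker genes.

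Before the results, 1 library has to be set apart. T1 replicate 2 lay almost exactly midway between T1 replicates 1 and 3. Replicates 1 and 3 differed at least 2-fold in 614 genes whose higher value reached 10, and replicate 2 lay between them in 611 of these (99.5%), at a median position of 0.49 of the way on the scale of values (quartiles 0.45 and 0.53). When each of the 41 other libraries of the series was placed between its group mates in the same way, the highest share was 85.6%. Its log2 values also stayed closest to the mean of the other 2 replicates, with an SD over genes of 0.124 against at least 0.237 in the others. A weighted sum of other libraries matched it best with 0.51 of replicate 3 and 0.47 of replicate 1. Over all tested genes, log2 values of replicate 2 correlated at 0.987 and 0.988 with replicates 1 and 3, which correlated at 0.963 with each other. Of 17861 genes, 29 sat at the arithmetic mean of replicates 1 and 3 within 0.0015. How the library came to lie there was not tested. If it does not count as a separate sample, T1 has 2 libraries at 12 h, so results are given with and without replicate 2.

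**Figure D1:**
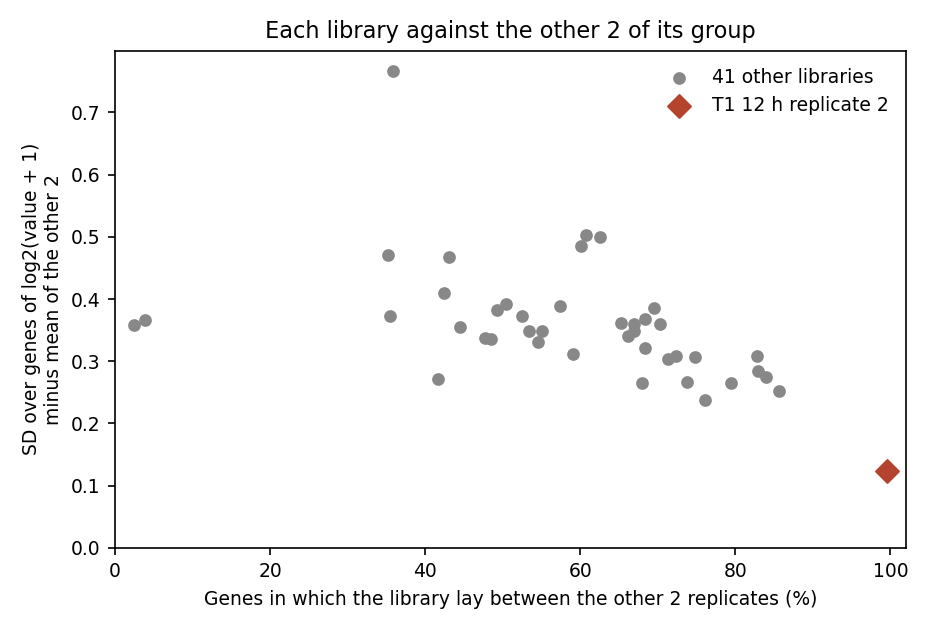
Position of each of the 42 libraries relative to the other 2 of its group. The x axis is the percentage of genes, among those at least 2-fold apart between the other 2, in which the library lay between them; the y axis is the SD over genes of its log2(value + 1) from their mean; the diamond for T1 12 h replicate 2 sits alone at 99.5% and 0.124.

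Among the other 12 h libraries, T2 replicate 3 had 2.08% of its summed signal in the 26 IDs with a Pt prefix, against 0.196% to 0.333% in the remaining 5. Its 44 Mt IDs summed to 24.1, against 9.98 to 13.5. The 6 column totals lay between 783218 and 809852, within the range of 783218 to 1228250 over the series. Read counts were not analysed here, so no counting interval is given for a single value.

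Pre-conditioned and directly salted leaves differed in few genes at 12 h. More of the called differences of at least 2-fold were upward in T1 when all 6 libraries were used. With all 6 libraries, 154 of 17888 genes passed limma's moderated test at an adjusted p under 0.05, a share of 0.861%. Of these, 88 (0.492%) were higher in T1, with a median log2 difference of 1.75, and 66 (0.369%) were lower, with a median of -0.99. At least 2-fold differences were found in 64 of the higher and 32 of the lower genes. Of the 64, 14 came from 1 stretch of neighbouring IDs that moved together and may amount to 1 call, as given below. In 43 of the 88 higher genes, T1 replicate 3 was at least 2-fold above T1 replicate 1 (value + 1). The median difference over all tested genes was 0. Unadjusted p-values fell under 0.05 in 1712 genes.

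Without T1 replicate 2, 50 genes (0.28%) passed, 27 higher (0.151%) and 23 lower (0.129%), and all 50 were among the 154. Counts of this size also came from leaving out another library: 49 without T1 replicate 3, 49 without T2 replicate 3 and 80 without T2 replicate 2. Leaving out T1 replicate 1 or T2 replicate 1 gave 150 and 118. In every one of these 6 fits 27 genes passed, 13 higher and 14 lower in T1, and 19 of the 154 passed in none. The spread in these fits was estimated from all 14 groups of the series. With the spread taken from the 12 h groups alone, 125 genes passed with 6 libraries and 3 without T1 replicate 2.

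**Figure D2:**
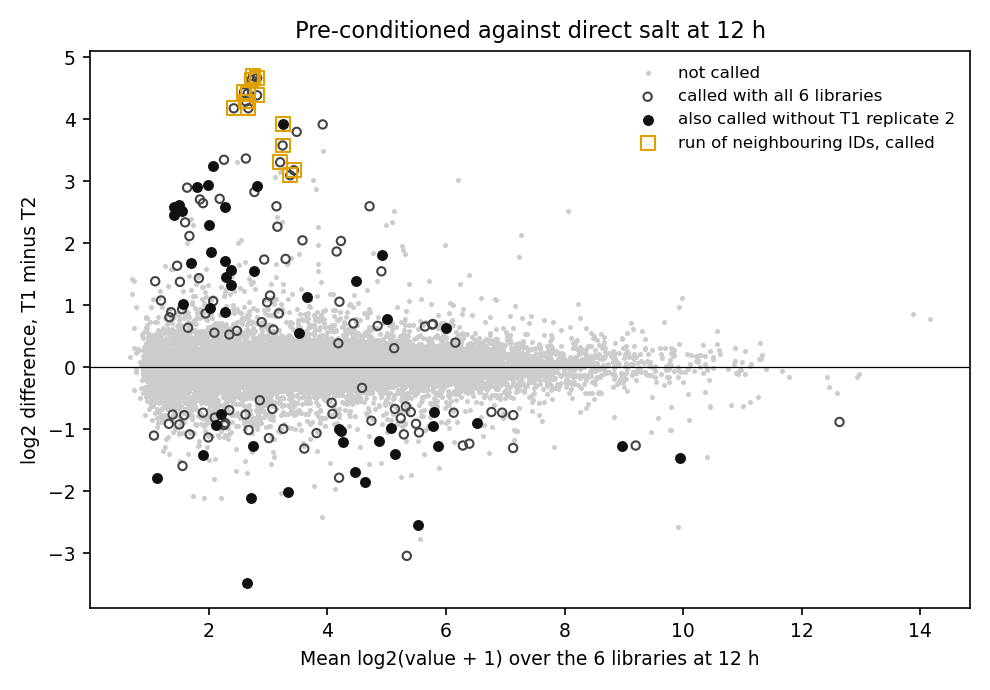
Difference between pre-conditioned and directly salted leaves at 12 h for 17888 genes. The x axis is the mean log2(value + 1) over the 6 libraries and the y axis the log2 difference, T1 minus T2; open circles are the genes called with 6 libraries (154 with the filled ones), filled circles the 50 also called without T1 replicate 2, and squares the 14 called genes of the run of neighbouring IDs, which lie at the top.

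The genes lower in T1 had more even T1 replicates than the genes higher in T1, but no more even than most tested genes. T1 replicates 1 and 3 lay within 2-fold of each other (value + 1) in 62 of the 66 lower and 43 of the 88 higher genes. Of all 17888 tested genes, replicate 3 was at least 2-fold above replicate 1 in 461 and at least 2-fold below it in 401. The 6 libraries did not overlap between treatments in any of the 66 (9.72% of all tested genes did not overlap in this direction), but the same libraries made the call. Lack of overlap was also part of the rule that named the largest differences below. Virad09G0172300 stood at 0.726, 0.851 and 1.08 in the T1 libraries and at 22.6, 23.2 and 14.6 in T2. The gene was near its lowest level in all T1 libraries and well above it in all T2 libraries. The log2 difference was -3.47 (SE 0.53, n = 3 and 3, limma adjusted p = 0.000601), and -3.45 (adjusted p = 0.00852) without T1 replicate 2. It passed in all 6 fits that left out a library.

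The ID next to it, Virad09G0172400, read 10.5, 12.5 and 17.1 in T1 and 52.2, 188 and 155 in T2. The T2 libraries were again all higher, and T2 replicate 1 stood well below the other two. Its log2 difference was -3.04 (SE 0.68, adjusted p = 0.0202), and it passed in 1 of the 6 fits with a library left out, the one without T2 replicate 1 (adjusted p = 0.0133). Without T1 replicate 2 the adjusted p was 0.101.

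Virad06G0112700 had values of 19.7, 18.1 and 16.7 in T1 and of 79.5, 133 and 126 in T2. The T1 libraries were tight and all below the lowest T2 library. The difference was -2.54 (SE 0.37, adjusted p = 0.000601), the same without T1 replicate 2 (adjusted p = 0.00694), and it held in all 6 fits.

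Virad04G0100200 gave 2.85, 2.81 and 1.14 in T1 against 19.5, 13.1 and 7.81 in T2. The groups did not overlap, with T2 replicate 3 nearest to T1. The difference was -2.11 (SE 0.44, adjusted p = 0.0119; 0.0415 without T1 replicate 2), but it did not pass without T1 replicate 3 (0.113), T2 replicate 1 (0.0849) or T2 replicate 2 (0.0544). For Virad02G0189500 the T1 values were 6.85, 5.0 and 1.73 and the T2 values 13.4, 28.5 and 18.7. T1 replicate 3 was the lowest of the 6, and the difference of -2.01 (SE 0.37, adjusted p = 0.0036; 0.0176 without T1 replicate 2) missed the threshold only without it (0.0665).

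The next 5 genes in order of size were Virad06G0195400, Virad07G0027900, Virad07G0295600, Virad06G0219500 and Virad11G0065800, with log2 differences from -1.85 to -1.41. Virad06G0195400, Virad06G0219500 and Virad11G0065800 passed in all 6 fits, with highest adjusted p-values of 0.0142, 0.0239 and 0.0289. Virad07G0295600 passed in 5, missing without T2 replicate 3 (0.0511). Virad07G0027900 passed in 2 and gave 0.107 without T1 replicate 2.

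All 5 of the most abundant called genes were lower in T1. Virad09G0112100, the most abundant, read 5222, 4876 and 4043 in T1 and 9154, 9329 and 7572 in T2. Every T1 library was below every T2 library, at a log2 difference of -0.88 (SE 0.20, adjusted p = 0.026), which did not pass without T1 replicate 2 (0.0973) or without T1 replicate 3, T2 replicate 1, T2 replicate 2 or T2 replicate 3 (0.0584 to 0.162). Virad06G0219500 read 597, 592 and 596 in T1 and 1316, 2001 and 1668 in T2. The 3 T1 values were nearly equal, and the difference was -1.46 (SE 0.25, adjusted p = 0.00206; 0.0176 without T1 replicate 2).

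Virad07G0260300 read 346, 324 and 306 against 767, 848 and 723, a difference of -1.26 (SE 0.22, adjusted p = 0.00233) that passed in all 6 fits. Virad07G0359500 (420, 377 and 342 against 993, 891 and 853) had a difference of -1.26 as well, with a larger SE of 0.32. It passed with 6 libraries (0.0469) and in none of the 6 fits with 1 left out (0.075 to 0.178). Virad08G0025400 lay at 79.4, 89.4 and 97.7 against 167, 265 and 238, with a difference of -1.30 (SE 0.28, adjusted p = 0.0144), and passed only in the fit without T2 replicate 1 (0.0133), the other 5 giving 0.0513 to 0.104. In all these genes the direction was the same in every fit with a library left out.

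**Figure D3:**
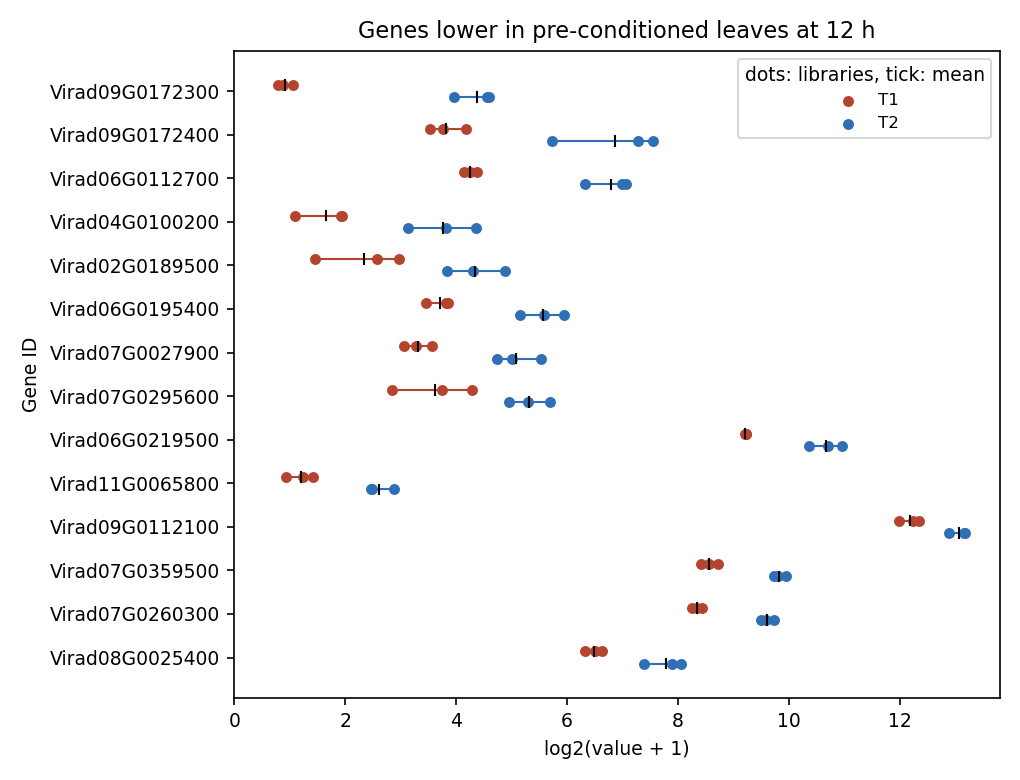
Values in each 12 h library for the 10 called genes with the largest downward differences and for the other abundant called genes. The x axis is log2(value + 1). Dots are libraries (T1 red, T2 blue) and the black tick is the mean of 3. The T1 dots lie to the left of the T2 dots in every row, which the rule asked for in the 10 genes.

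Most of the genes lower in T1 rose during the first day of salt in both treatments. Between 0 and 24 h of direct salt, 46 of the 66 genes (69.7%) rose and 2 fell, with a median log2 change of 0.96, while 12.4% of all tested genes rose and 10.4% fell. In T1 the corresponding counts between 0 and 24 h were 44 that rose and 4 that fell, against 12.2% and 8.8% of all tested genes. Of the 23 lower genes that passed without T1 replicate 2, 17 rose in T2 by 24 h (73.9%). The 0 and 24 h libraries were not in the 12 h contrast, but they shared in the estimate of spread behind each call. The genes higher in T1 leaned the other way: 25 of 88 (28.4%) fell by 24 h in T2 and 1 rose.

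The courses of single genes show where 12 h stands. Virad06G0219500 had T2 means of 313 ± 50.5 (SD, n = 3) at 0 h, 1105 ± 94.0 after 6 h, 1662 ± 343 after 12 h and 3378 ± 599 after 24 h. In T1 the means were 509 ± 189, 1150 ± 458, 595 ± 3.11 and 3013 ± 686 at the same times. T2 thus stood higher at each of these times than at the one before, whereas T1 stood lower at 12 h than at 6 h; at 24 h the difference was -0.18 (adjusted p = 0.75). Virad09G0172300 had T2 means of 2.59 ± 2.01 after 6 h, 20.2 ± 4.8 after 12 h and 14 ± 4.42 after 24 h. Its T1 means were 2.03 ± 1.44, 0.886 ± 0.18 and 14 ± 9.37, with equal means at 24 h. At 48 h T1 was the higher, at 49.7 ± 15.5 against 22.7 ± 10.5 (log2 difference 1.18, limma adjusted p = 0.101).

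Virad06G0112700 dipped at 12 h in both treatments, and further in T1. Its T2 means were 242 ± 55.0 after 6 h, 113 ± 29.0 after 12 h and 359 ± 61.7 after 24 h. The T1 means were 213 ± 62.5, 18.2 ± 1.52 and 529 ± 261. At 48 h the order was turned, with T1 at 1375 ± 530 and T2 at 358 ± 40.7, a log2 difference of 1.86 (adjusted p = 0.000522).

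**Figure D4:**
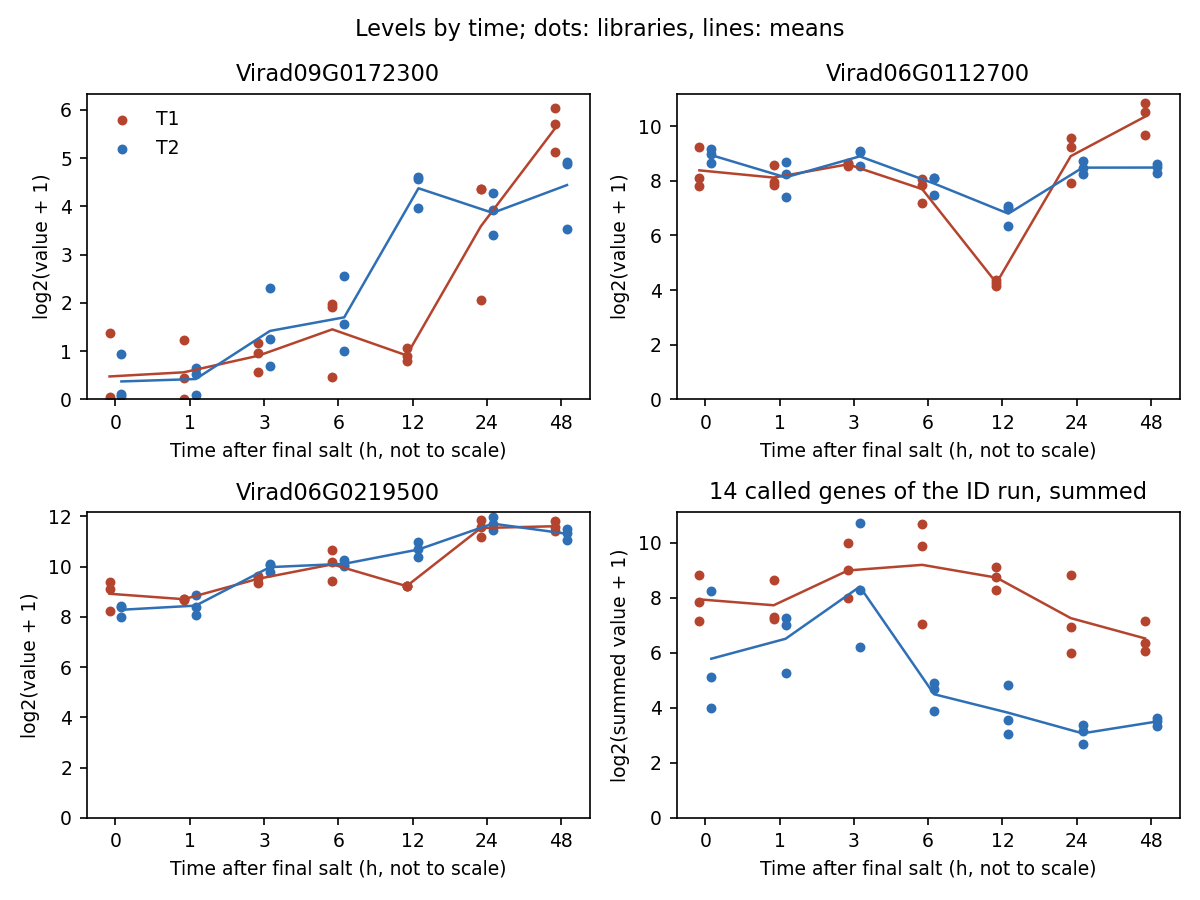
Levels at 7 times after the final salt in pre-conditioned (T1, red) and directly salted (T2, blue) leaves for Virad09G0172300, Virad06G0112700, Virad06G0219500 and the summed values of 14 genes of the run of neighbouring IDs. The y axis is log2(value + 1), dots are libraries and lines join the means of the log values. The 3 single genes separate at 12 h, and the summed run separates from 6 h on. All genes shown were chosen by their 12 h libraries, so the choice fixed the separation at that time. Virad06G0219500 also separates at 3 h, and Virad09G0172300 and Virad06G0112700 separate at 48 h with T1 the higher.

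The 10 genes with the largest upward differences all came from 1 stretch of IDs. Between Virad03G0260500 and Virad03G0262300 the table lists 19 IDs, all of them tested, and 14 of these were called higher in T1, with log2 differences from 3.10 to 4.70 and adjusted p-values from 0.00572 to 0.0388. The stretch was noticed after the values were seen. Its 14 genes moved almost as 1: over the 36 libraries of the other times, log2 values of any 2 of them correlated at 0.888 to 0.988 (median 0.953), libraries of the same group included. Whether they are near-identical copies among which reads were shared was not tested, since no sequence was at hand, so the 14 calls may amount to 1.

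Virad03G0261300, the largest, read 21.6, 38.3 and 44.2 in T1 and 0.83, 0.26 and 0 in T2. Virad03G0262200 read 20.1, 42.5 and 47.8 against 0.553, 0.606 and 0.094. T1 replicate 1 was the lowest T1 library in both, and still far above any T2 library. Their differences were 4.70 (SE 1.06, adjusted p = 0.0212; 0.115 without T1 replicate 2) and 4.67 (SE 1.00, adjusted p = 0.0143; 0.0869 without it).

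Virad03G0262300 (16.5, 34.9 and 56.5 against 0.65, 0.09 and 0.28), Virad03G0260700 (14.4, 29.9 and 46.1 against 0.83, 0 and 0.19) and Virad03G0260600 (20.4, 30.6 and 35.6 against 0.9, 0.34 and 0) had differences of 4.64, 4.44 and 4.42. In these 3 genes T1 replicate 3 was the highest. As in the genes above, all T2 values lay under 1, so the T1 libraries alone brought them into the test. Libraries without overlap were asked for by the rule that named them, so nothing is read from that. Their adjusted p-values were 0.0161, 0.0273 and 0.0194 with 6 libraries and 0.0869, 0.133 and 0.0994 without T1 replicate 2. Virad03G0261100 was the 1 gene of the 14 that passed without that replicate (4.08, adjusted p = 0.0273), and it did not pass without T1 replicate 3 (0.0527) or T2 replicate 3 (0.0603). The size of the difference changed little in any of these fits, from 3.69 to 4.33 for Virad03G0261100.

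Of the 5 IDs in the stretch that were not called, Virad03G0260900, Virad03G0261800 and Virad03G0261900 were higher in all T1 than in all T2 libraries, with differences of 1.68, 2.27 and 3.02 (adjusted p = 0.359, 0.255 and 0.114). Virad03G0260800 and Virad03G0261700 stood at 4.34 or less in all 6 libraries, with differences of -0.55 and -0.58 (adjusted p = 0.796 and 0.701).

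Summed over its 14 called genes, the stretch stood at 313, 435 and 558 in the T1 libraries at 12 h and at 27.3, 10.9 and 7.34 in T2. The call at 12 h chose these genes and left the other IDs of the stretch out of the sum, so nothing is read from the separation at 12 h. At 6 h the sums were 1627, 942 and 130 in T1 and 28.9, 24.6 and 13.9 in T2, and at 24 h they were 457, 122 and 62.7 against 7.89, 5.47 and 9.31. At 6, 24 and 48 h, the times after 3 h that did not choose the genes, every T1 library was above every T2 library. Before 6 h the treatments overlapped, and single libraries of 1 group lay far apart. The T2 sums were 14.9, 299 and 34.0 at 0 h and 310, 1679 and 73.0 at 3 h. The T1 sums at 3 h were 254, 512 and 1005. Of the 14 genes 3 passed at 6 h, 4 at 24 h and 4 at 48 h, all higher in T1, where 0.0615%, 1.13% and 14.2% of all tested genes were called higher.

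Outside the stretch, 74 genes were called higher in T1. Among all 88 higher genes, T1 replicate 3 was at least 2-fold above replicate 1 (value + 1) in 43, the reverse held in 2, and 43 lay within 2-fold, while of all 17888 tested genes 461 and 401 were 2-fold apart in these directions. The 6 libraries did not overlap between treatments in 86 of the 88 (11.5% of all tested genes), from which nothing is read, since the call rests on the same libraries. Virad01G0153200, named by its interactions, read 4.27, 8.55 and 13.4 in T1 and 2.55, 1.79 and 1.80 in T2. T1 replicate 3 was far above replicate 1, and the lowest T1 library was still above the highest T2 library. The difference was 1.57 (SE 0.25, adjusted p = 0.00109; 0.0139 without T1 replicate 2), and it passed in all 6 fits.

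Virad02G0155000 (6.38, 8.95 and 10.9 against 4.31, 5.49 and 4.59) differed by 0.73 (adjusted p = 0.0262), and by 0.70 without T1 replicate 2, where it did not pass (0.14). It missed the threshold also without T1 replicate 3, T2 replicate 1 and T2 replicate 3 (0.118 to 0.216). Some higher genes had even T1 libraries. Virad02G0208000 and Virad09G0010800, picked for this after their values were seen, read 17.8, 16.0 and 19.6 against 6.46, 12.1 and 5.42, and 85.3, 76.9 and 74.5 against 52.1, 48.4 and 50.4. Their T1 libraries were all above their T2 libraries, by 1.13 and 0.64 on the log2 scale, and by 1.2 (adjusted p = 0.00694) and 0.66 (0.0436) without T1 replicate 2. Virad01G0080500, noticed for its opposite order of replicates, read 19.6, 12.2 and 5.12 in T1 and 1.95, 0.757 and 0.484 in T2, so that T1 replicate 1 was the highest there (2.59, adjusted p = 0.000601; 0.00694 without T1 replicate 2).

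Genes that changed between 0 and 24 h of salt differed between treatments at 12 h as a group, those that rose being lower in T1 and those that fell higher. The libraries used hold no unsalted leaves after 0 h, so salt, time of day and leaf age cannot be told apart in lists made over time. The 406 tested genes that rose at least 2-fold in T2 between 0 and 24 h had a median 12 h difference of -0.27, with 79.6% of them below 0, where all tested genes had a median of 0 and 49% below 0. One of the 406 was called higher and 31 lower in T1 (7.88% called), against 0.492% higher and 0.369% lower among all tested genes. Relative to the T2 mean, the list's median was -0.20, -0.26 and -0.42 in the T1 libraries and -0.04, 0.03 and 0 in T2. The T1 libraries were thus all below the T2 libraries. Without T1 replicate 2, the list held 403 genes, of which 0 were called higher and 12 lower (0.151% and 0.129% of all tested genes), at a median of -0.28.

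The 430 genes that fell at least 2-fold in T2 by 24 h showed the opposite. Their median 12 h difference was 0.30, with 18 called higher and 2 lower in T1 (4.65% called, against 0.861% of all tested genes). The T1 libraries stood at 0.19, 0.32 and 0.33 relative to the T2 mean and the T2 libraries at 0.05, -0.02 and -0.02, again without overlap. Without T1 replicate 2 the median was 0.28, with 5 called higher and 1 lower among 423 genes. Lists chosen from T1 between 0 and 24 h had medians of -0.29 for 492 raised and 0.24 for 378 lowered genes. Their overlap with the T2 lists was not counted, so they are not taken as a separate result. In level, the median gene of the late-raised list read 17.9 in T2 and 13.6 in T1 at 12 h, and the median gene of the late-lowered list 8.78 in T2 and 11.5 in T1.

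**Figure D5:**
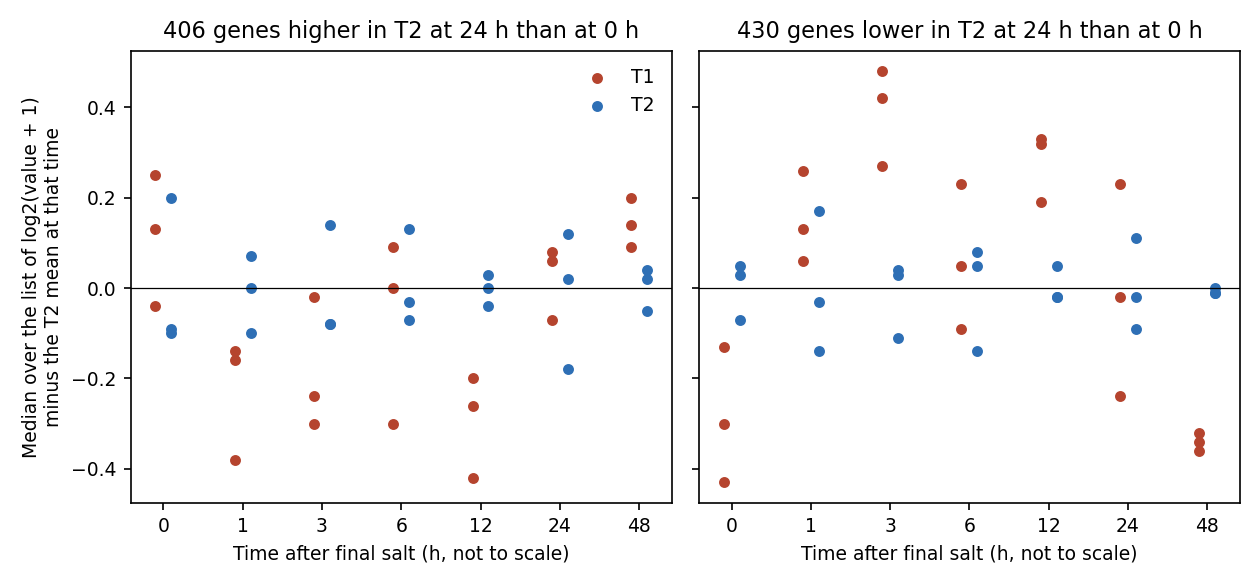
Genes that differed at least 2-fold between 24 and 0 h of direct salt, 406 raised (left) and 430 lowered (right), in every library. The y axis is the median over the list of log2(value + 1) minus the T2 mean at that time; dots are libraries (T1 red, T2 blue); the T2 libraries at 0 and 24 h chose the genes, and at 12 h the T1 dots lie below the T2 dots on the left and above them on the right.

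At 0 h, where the T2 libraries helped choose the genes, the medians were 0.13 for the late-raised and -0.3 for the late-lowered list. At 1 h the late-raised list stood at -0.24. Its T1 libraries at -0.38, -0.16 and -0.14 lay below the T2 libraries at 0.07, -0.1 and 0. The late-lowered list stood at 0.12 at 1 h, with overlapping libraries. At 3 h the late-lowered list had a median difference of 0.37. Its T1 libraries at 0.42, 0.48 and 0.27 did not overlap with the T2 libraries at 0.04, -0.11 and 0.03. The late-raised list stood at -0.18, with T1 libraries at -0.30, -0.24 and -0.02 and T2 libraries at -0.08, 0.14 and -0.08, where T1 replicate 3 lay among the T2 libraries. At 6 h the medians were -0.08 and 0.09, and T1 and T2 libraries overlapped in both lists. At 48 h both had changed sign, to 0.13 and -0.34.

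Genes that changed between 0 and 6 h had smaller medians. The 946 genes raised at least 2-fold in T2 at 6 h had a median 12 h difference of -0.06, with T1 libraries at -0.13, -0.06 and -0.02 and T2 libraries at -0.04, -0.04 and 0.06. The libraries overlapped, although 23 of the 946 were called lower and 0 higher in T1 (2.43% called, against 0.861% of all tested genes). Without T1 replicate 2 it was 6 lower and 0 higher of 940 (0.638%, against 0.28%). The 1190 genes lowered at 6 h had a median of 0.16, with T1 libraries at 0.23, 0.17 and 0.07 and T2 at 0.01, 0.09 and -0.11, where T1 replicate 3 lay below T2 replicate 2. At 12 h, 982 genes were at least 2-fold above and 952 at least 2-fold below the mean of 6 and 24 h when both treatments were averaged, a choice that used the 12 h libraries but not the difference between treatments. The peaking genes were somewhat higher in T1 (median 0.12; 0.11 without T1 replicate 2), with T1 libraries at 0.15, 0.12 and 0.08 and T2 libraries at -0.01, 0 and 0.01, while the genes at their trough had a median of 0.03 and overlapping libraries.

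A measure of progress from the 6 h to the 24 h state, 0 at 6 h and 1 at 24 h, did not separate the treatments. The T1 libraries stood at 0.40, 0.29 and 0.19 and the T2 libraries at 0.33, 0.34 and 0.25. T1 spread on both sides of T2, with replicate 1 the farthest along and replicate 3 the least. The difference of the means was -0.02 (exact permutation test, two-sided, n = 3 and 3, p = 0.8, where 0.1 is the smallest p such groups allow).

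Genes that differed at 12 h were also followed through the other times, in libraries outside the 12 h contrast that shared in its estimate of spread. The 88 higher genes hold the 14 called genes of the ID stretch, which moved together. Of the 88 higher genes 83 had a T1 minus T2 difference above 0 at 6 h (94.3%, against 51.3% of all tested genes), with a median of 0.67. At 3 h it was 81 (92%) and at 24 h 73 (83%), with medians of 0.41 and 0.26. The 27 that passed without T1 replicate 2 hold 1 gene of the stretch and had a 6 h median of 0.49. For the 66 lower genes the medians at 3, 6 and 24 h were -0.29, -0.26 and -0.22. At 48 h the medians were 0.11 and 0.02. Before 3 h the higher genes had medians of 0.20 (0 h) and 0.08 (1 h), which were -0.05 and -0.07 for the 27 that passed without T1 replicate 2, and the lower genes had -0.12 and -0.25, or -0.05 and -0.11 for the 23 kept without that library. At 1 h 6 of the 88 were called higher and 2 lower, and 19 of the 66 were called lower and 0 higher, where 3.12% and 4.89% of all tested genes were called higher and lower. Seen from the other side, genes called higher and lower in T1 at 1 h had 12 h medians of 0.17 and -0.13, those called at 24 h medians of 0.27 and -0.20, those called at 0 h medians of 0.16 and -0.10, and those called at 48 h a median of 0.01 in each direction. All of these were within 0.02 of the same values without T1 replicate 2. In the same direction, 5 genes passed at 6 h, 3 of them of the ID stretch, and 13 at 24 h, 4 of them of the stretch. At these times 0.0783% and 2.54% of all genes were called. At 48 h, where 24.6% of all genes were called, 21 passed in the same direction, 4 of them of the stretch, and 16 in the opposite one.

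Virad07G0295600 was lower in T1 at 6, 12 and 24 h. It read 6.14, 12.5 and 18.4 in T1 and 38.3, 30.0 and 51.0 in T2 at 12 h, with T1 replicate 3 nearest to T2. The log2 difference was -1.68 after 6 h (adjusted p = 0.0373), -1.69 after 12 h (0.00363, or 0.0186 without T1 replicate 2) and -1.85 after 24 h (0.00157). At 0 and 3 h they were -0.62 and -0.07 (adjusted p = 0.221 and 0.937). Virad06G0280200 was lower at 6 h (-1.15) and 12 h (-0.82, adjusted p = 0.0284, or 0.129 without T1 replicate 2). Its largest difference came earlier, with -1.67 at 1 h (adjusted p = 6.04e-07), after -0.35 at 0 h (0.257). At 12 and 24 h both, Virad06G0184900, Virad08G0121400, Virad11G0151400 and Virad07G0051000 were lower. Of these 4, Virad11G0151400 (-0.93, 0.000601) and Virad07G0051000 (-0.90, 0.00299) passed in all 6 fits with a library left out. Virad06G0184900 and Virad08G0121400 (-1.26 and -1.06) passed in none. Virad08G0121400, Virad11G0151400 and Virad07G0051000 were already lower at 0 h, at -1.55, -0.53 and -0.58 (adjusted p = 0.00359, 0.03 and 0.036). At 1 h these genes stood at -2.59, -0.61 and -1.23 (8.3e-08, 0.00591 and 6.48e-06). Virad06G0184900 was not called at 0 or 1 h (0.285 and 0.214). Higher in T1 at 12 and 24 h was Virad03G0221300, at 0.59 (0.0469 at 12 h, or 0.259 without T1 replicate 2), beside 4 genes of the ID stretch. Virad03G0221300 was also higher at 0 h (0.54, adjusted p = 0.0332).

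Whether the T1 minus T2 difference itself changed from another time to 12 h was tested gene by gene. Against 0 h, 30 genes passed (0.168%), and the 5 with the smallest p were Virad06G0219500, Virad09G0072600, Virad01G0153200, Virad07G0359500 and Virad08G0164800, all at an adjusted p of 0.0193. Virad06G0219500 went from 0.64 at 0 h to -1.46 at 12 h, a change of -2.10 (SE 0.35), and Virad01G0153200 from -0.41 to 1.57, a change of 1.98 (SE 0.36). Against 24 h, 12 genes passed (0.0671%). Among the 5 of these with the smallest p, Virad06G0112700 and Virad01G0153200 differed at 12 h, with changes of -2.96 (SE 0.52) and 2.01 (SE 0.36) relative to 24 h, both at an adjusted p of 0.0151. Virad09G0116500, Virad11G0177700 and Virad08G0434400 passed through their 24 h difference, at 12 h being 0.09, 0.39 and -0.13 (adjusted p = 0.961, 0.24 and 0.955). Against 6 h, 0 genes passed and 1264 had an unadjusted p under 0.05. The smallest p-values there belonged to Virad09G0072600, Virad02G0155000, Virad06G0112700, Virad04G0100200 and Virad01G0153200, each at an adjusted p of 0.476. Without T1 replicate 2 at 12 h, 0 genes passed against 0 h, 0 against 6 h and 7 against 24 h (0.0391%).

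One gene had a value of at least 1 in every T1 library and was listed at 0 in every T2 library, and 0 genes showed the reverse. It was Virad05G0078500, which read 1.75, 1.77 and 1.51 in T1, with a log2 difference of 1.42 (adjusted p = 0.0947; 0.303 without T1 replicate 2). The 24 tested IDs with a Pt prefix had a median difference of -0.13 with 0 called, which was 0.11 without T2 replicate 3. In these IDs T2 replicate 3, the library with the raised Pt share, stood at 0.35 against the T2 mean of this list. Among the 100 genes with the highest levels at other times, 3 were called, all lower in T1, where 0.369% of all tested genes were called lower.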

How the data were processed

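Poly(A) RNA of leaves was sequenced on the DNBSEQ platform, per the labels' protocols. The submitters' processing notes name fastp 1.0.1, HISAT2 2.2.1, featureCounts (no version) and DESeq2 1.48.2; neither build nor annotation is stated there. The authors deposited a normalized expression signal per gene and library, in a table called TPM. Its columns do not sum to 1 total, which TPM would, and how they were scaled is not described in the sources, so the table was treated as a normalized signal rather than as TPM. No counts were used. Values were taken as log2(value + 1), genes needed to reach 1 in 3 or more of the 6 libraries, and limma 3.58.1 in R 4.3.3 fitted 1 mean per group over 42 libraries, with robust, trended moderation and Benjamini-Hochberg adjustment over 17888 genes. Fold changes on this scale understate changes of low genes. Called means an adjusted p under 0.05. The fit was tried on simulated data with independent libraries and genes. That setting covers neither a library midway between its group mates nor genes that move together. Position on the 6 to 24 h axis used an exact permutation test.

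The members, lists and rules were chosen with earlier results of these data known. Genes are named by rule: the 10 largest non-overlapping differences in each direction among called genes with a mean of at least 5 in the higher group, the 5 most abundant called genes, those also called at 6 or 24 h, and the 5 smallest p-values of each interaction; exceptions are marked. Alternatives covered pseudocounts of 0.1 and 0.5, filters, scalings, moderation, library weights, the groups fitted, a replicate block and each library left out. Deviations of T1 and T2 libraries with equal replicate numbers correlated at -0.24, -0.01 and 0.12. Those with unequal numbers correlated at -0.38 to 0.38. With 3 libraries per group and T1 replicate 2 midway between its mates, these values cannot decide whether equal numbers pair libraries.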

Additional observations from a re-analysis of the deposited data

Results flagged for a closer look

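The difference between pre-conditioned and directly salted leaves was itself different at 12 h and at 0 h in 30 genes, and at 12 h and 24 h in 12 genes, by limma's test of the interaction. Both counts depended on single libraries. Against 0 h, leaving out T1 12 h replicate 2 brought the count to 0, leaving out T1 0 h replicate 2 brought it to 1415, and leaving out both brought it to 710. Against 24 h it was 7 without T1 12 h replicate 2, and it ran from 3 without T2 24 h replicate 2 to 52 without T1 12 h replicate 1. The 12 h position of T1 replicate 2 between its group mates, and the wide spread of T1 at 0 h (median SD of 0.244 on the log2 scale, against 0.118 to 0.182 in the other groups), move with these counts, and their part in them was not tested.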

How the results depend on the processing

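Under pseudocounts of 0.1 and 0.5, other filters, other scalings, no robust moderation and a fit to only the groups compared, 106 to 217 genes were called at 12 h, and the named genes kept their direction, 35 of the 40 being tested with a mean of at least 5. Without a filter, 139 genes were higher in T1. Scalings moved the median of all genes by 0.01 at most. The library weights of limma did not converge, with a weight of 1217 for T1 replicate 2 and 0.609 to 1.52 for the other 5. With these weights 4256 genes were called, 2200 higher and 2056 lower, with 4457, 1455 and 1613 in the interactions with 0, 6 and 24 h.

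A replicate block gave 94 called genes, 49 of them higher, and 0 in the interactions with 0 and 24 h. Whether libraries of equal replicate number belong together was not settled. Leaving out 1 library of the 12 h groups gave 49 to 150 called genes, 26 to 98 higher and 22 to 54 lower. Leaving out 1 library of either time gave 0 to 1415 genes in the interaction with 0 h, 0 to 7 with 6 h and 3 to 52 with 24 h; the 1415 came without T1 0 h replicate 2, and the cause was not tested.

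Settings that left out T1 12 h replicate 2 together with another choice were added after seeing the data. Beside 50 called genes, 27 higher and 23 lower, without that library, the fit to the 12 h groups only gave 3 (2 and 1), leaving out T2 12 h replicate 3 as well gave 10 (5 and 5), library weights, which then converged, gave 54 (25 and 29), median-of-ratios scaling 50 (26 and 24), quantile normalization 73 (34 and 39) and equal totals 71 (40 and 31). The interaction with 0 h gave 710 genes without T1 replicate 2 at both times.

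The interaction with 0 h, 30 genes in the main fit, gave 19 with a pseudocount of 0.1, 16 with a mean of at least 5 and 0 in the fit to only the groups compared. That with 24 h, 12 genes, gave 7 with a pseudocount of 0.1, 49 without a filter, 5 with a mean of at least 5, 34 with the filter over 42 libraries, 23 with quantile normalization, 21 with equal totals and 67 in the fit to only the groups compared.

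Most list medians moved by less than their spread between libraries. The late-raised list came to -0.19 with a pseudocount of 0.1. Equal totals gave 0.23 for genes higher in T1 at 1 h, 0.40 for those higher at 24 h and 0.08 for genes peaking at 12 h. No filter gave -0.09 for genes lower at 1 h, 0.15 for those higher at 24 h and -0.05 for the 3 Mt IDs. Library weights gave 0.37 for genes lowered in T1 at 24 h, 0.10 and -0.08 for genes higher and lower at 1 h, and -0.09 for those lower at 24 h. Leaving out 1 library gave -0.35 to -0.24 for the late-raised list, 0.08 to 0.13 for genes peaking at 12 h and -0.35 to 0.06 for the Mt IDs.

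Some values changed sign. The difference in position on the 6 to 24 h axis was 0.03 without T1 12 h replicate 3 (range -0.07 to 0.03 with 1 library left out), and without T2 12 h replicate 3 the median was 0.06 for the Mt IDs and 0.11 for the Pt IDs (range -0.28 to 0.11). Virad09G0116500 had -0.02 without T2 12 h replicate 1 (range -0.02 to 0.22, and 0.26 without T1 12 h replicate 2 and T2 12 h replicate 3). Virad08G0434400 had 0.22 without T2 12 h replicate 3 (range -0.32 to 0.22) and 0.25 when T1 12 h replicate 2 was left out too. None of these was called at 12 h. Of the 40 named genes, 17 stayed on their side of the threshold without T1 12 h replicate 2 and 23 lost their call. Read counts were not analysed here, so what depth limits is unknown for the low genes.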
